A study of Mus musculus with 6 samples.

Results

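The Notch genes examined here are 10 genes out of the 55291 in the deposited table, listed by name: the receptors Notch1, Notch2, Notch3 and Notch4, the ligands Jag1, Jag2 and Dll4, and the target genes Hes1, Hey1 and Sox9. All 10 were found in the table and all 10 passed the filter, which asked for 1 TPM or more in any 3 libraries. TPM, the transcripts of a gene per fixed total of transcripts, divides the reads of a gene by its exon length and by the library total, so that levels can be set side by side between genes. The MKO_PD1 libraries came from 3 liver tumours grown in Trem2-MKO mice, whose myeloid cells lack Trem2, a lipid-sensing receptor of macrophages. The Cre_PD1 libraries came from 3 liver tumours grown in LysM-Cre mice, which carry the Cre recombinase that the Lyz2 promoter drives in macrophages, monocytes and neutrophils. All tumours were RIL-175/PD-1R tumours, from a mouse hepatocellular carcinoma cell line, and all 6 hosts were treated with anti-PD-1, which blocks a brake on T cells. PD-1R is not spelled out in the labels, which also give no age, sex, floxed allele or Cre line of the Trem2-MKO mice. Each library is 1 bulk sample of polyadenylated RNA from 1 tumour.

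Notch receptors are cell surface proteins that are cut when a Jagged or Delta-like ligand on a neighbouring cell binds them. The freed inner part enters the nucleus, joins the DNA-binding protein RBPJ and switches on genes such as Hes1, Hey1 and Nrarp, many of which encode repressors. In liver the pathway is known for directing progenitor cells towards bile duct fate, in which Sox9, a transcription factor gene of duct cells, is a marker and a target. In blood vessels Dll4 and Notch4 mark endothelial cells and Notch3 marks the mural cells that wrap them.

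The libraries held 26747481 to 34265123 recovered reads. They differed in tissue content along the same line as the groups, which touches every comparison. The 18 listed hepatocyte genes took 13.6, 3.23 and 9.45% of TPM in MKO_PD1 replicates 1, 2 and 3, against 1.16, 2.48 and 2.68% in Cre_PD1 replicates 1, 2 and 3, and all 18 were above 0 in all 6 libraries. MKO_PD1 replicates 1 and 3 stood apart from the other 4 libraries, and MKO_PD1 replicate 2 was close to Cre_PD1 in hepatocyte RNA and had the most T cell RNA (summed TPM of 8 T cell genes 334, against 47.0 and 81.5 in the other MKO_PD1 libraries and 82.2 to 149 in Cre_PD1). The median log2 difference of all 16506 tested genes, MKO_PD1 minus Cre_PD1, was -0.42, and it was -0.02 after median-of-ratios scaling, so differences are also given relative to it. Trem2 was at 7.68, 18.0 and 6.81 TPM in MKO_PD1, against 10.5, 16.5 and 14.9 TPM in Cre_PD1. The ranges overlapped (log2 difference -0.44, SE 0.40, limma adjusted p = 0.432), and reads over the whole gene do not measure the deleted part, which the labels do not name.

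Promoters are shown first for Jag1, Dll4 and Nrarp, whose MKO_PD1 values all lay under their Cre_PD1 values, and for Notch4, whose values did not. Hes1, Hey1 and Sox9 also lay lower without overlap, but no promoter of theirs was at hand. Each line gives the 250 bases before the RefSeq start on GRCm38.p6, with capitals for the core of the RBPJ site (TGGGAA or its reverse complement) and for the E-box CACGTG, a palindrome of the kind that HES and HEY repressors can bind. The windows were chr2:137116521-137116770 (minus strand) for Jag1, chr2:119325534-119325783 (plus strand) for Dll4, chr17:34564045-34564294 (plus strand) for Notch4, chr2:25180508-25180757 (plus strand) for Nrarp and chr4:154960673-154960922 (plus strand) for Hes5, which is added as a target gene whose window holds the RBPJ core.
Jag1: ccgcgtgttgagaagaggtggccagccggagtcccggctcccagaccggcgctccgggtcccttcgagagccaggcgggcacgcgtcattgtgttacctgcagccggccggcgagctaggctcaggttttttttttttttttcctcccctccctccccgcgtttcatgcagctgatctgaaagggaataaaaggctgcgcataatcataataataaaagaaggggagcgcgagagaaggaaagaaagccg
Dll4: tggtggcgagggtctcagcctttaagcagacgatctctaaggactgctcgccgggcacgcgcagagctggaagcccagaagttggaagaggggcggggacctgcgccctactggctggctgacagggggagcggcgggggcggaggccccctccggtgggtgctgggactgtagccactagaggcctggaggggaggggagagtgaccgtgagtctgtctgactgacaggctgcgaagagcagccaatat
Notch4: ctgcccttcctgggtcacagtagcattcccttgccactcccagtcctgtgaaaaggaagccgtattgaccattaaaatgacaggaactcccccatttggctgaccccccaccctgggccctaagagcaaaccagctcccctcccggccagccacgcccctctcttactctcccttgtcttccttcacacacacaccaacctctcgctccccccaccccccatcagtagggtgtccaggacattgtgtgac
Nrarp: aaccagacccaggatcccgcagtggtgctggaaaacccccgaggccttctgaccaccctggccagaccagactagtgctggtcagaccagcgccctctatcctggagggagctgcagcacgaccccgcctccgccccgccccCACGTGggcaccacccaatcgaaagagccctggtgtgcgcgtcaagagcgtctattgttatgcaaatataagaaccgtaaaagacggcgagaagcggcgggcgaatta
Hes5: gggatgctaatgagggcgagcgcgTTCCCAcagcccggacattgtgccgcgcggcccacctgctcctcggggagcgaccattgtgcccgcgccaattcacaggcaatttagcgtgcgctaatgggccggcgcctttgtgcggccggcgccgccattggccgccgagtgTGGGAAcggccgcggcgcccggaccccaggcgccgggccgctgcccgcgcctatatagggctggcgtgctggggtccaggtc
Neither motif occurred in the windows of Jag1, Dll4 and Notch4, nor in those of Notch1, Notch2, Notch3 and Jag2. The Nrarp window held the E-box from base -108 to base -103, counted back from the start, and the Hes5 window held the RBPJ core at -226 to -221 and again at -82 to -77. Of 32536 promoter windows of the same length, 21.6% held the RBPJ core and 6.04% held the E-box (both strands searched). A match is a string of letters and not a measured binding site, and 7 of the 10 members matched a RefSeq promoter in the table used here, the exceptions being Hes1, Hey1 and Sox9. Hes5 did not pass the filter and reached at most 0.305 TPM in any library.

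Of the 10 members 9 had a lower mean log2 level in tumours of Trem2-MKO mice, where 72.9% of all tested genes did, and none passed the correction over all genes. Jag1, Dll4, Hes1, Hey1 and Sox9 had all 3 MKO_PD1 values under all 3 Cre_PD1 values, which is 5 of 10 members, where 28.9% of all tested genes showed the same. The limma test on log2(TPM + 1) called 0 of 10 members at an adjusted p under 0.05, where it called 0.00606% of all genes as lower and 0.00606% as higher. limma voom on the recovered reads also called 0 members. At an unadjusted p under 0.05 the same 5 members were lower, against 19.5% of all genes, and 0 were higher, against 8.47% of all genes. In the same test 6 of 10 had a log2 difference below -1, against 13.1% of all genes. The median of the 10 log2 differences was -1.21, beside -0.42 for all tested genes, and -0.76 beside -0.02 after median-of-ratios scaling, under which limma gave an unadjusted p under 0.05 for the same 5 members, all lower, against 14.0% of all genes. In bulk tumour RNA fewer cells of a type and less RNA per cell cannot be told apart.

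**Figure D1:**
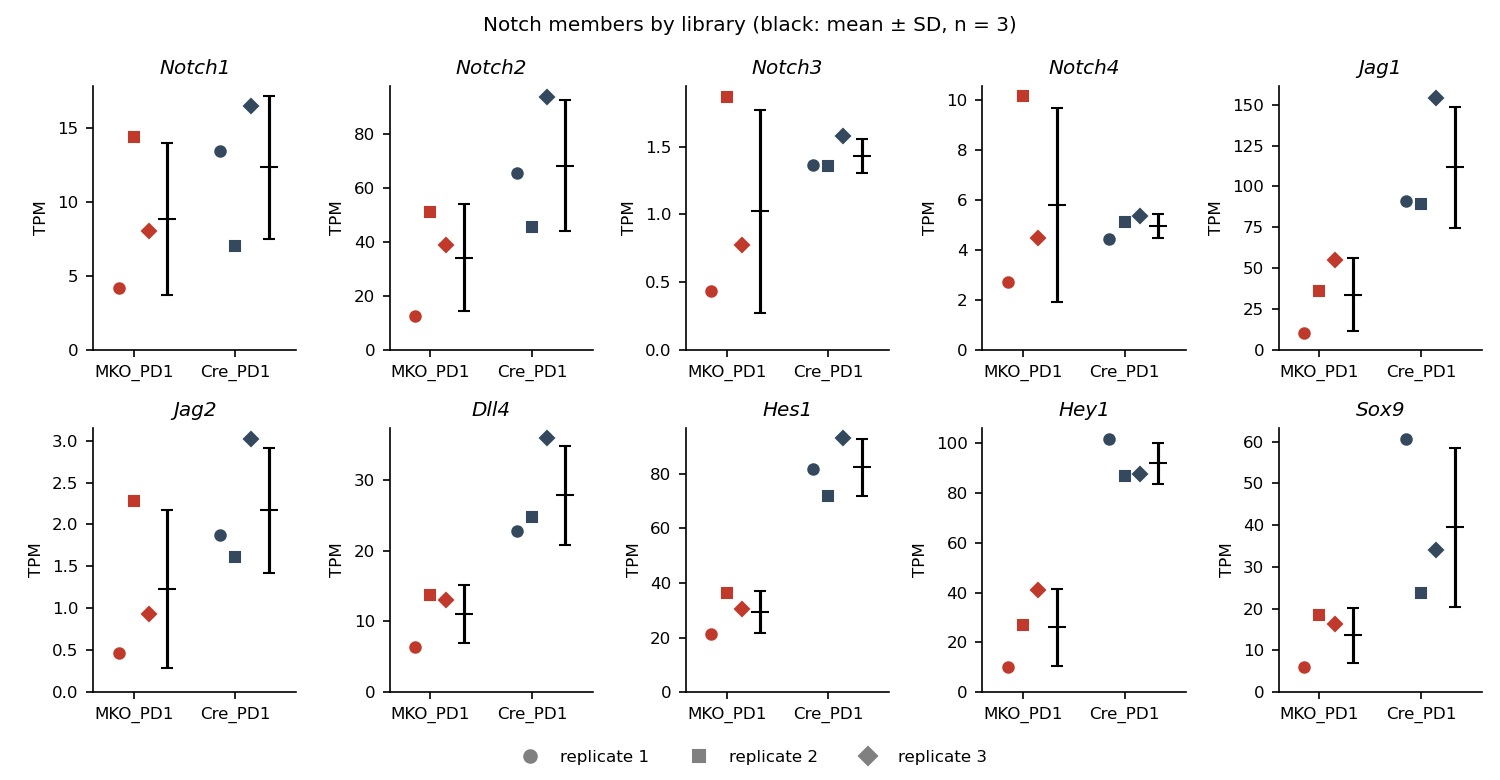
Level of each Notch gene in TPM (vertical axes, linear from 0) in the 3 MKO_PD1 libraries and the 3 Cre_PD1 libraries; marker shape gives the replicate and black bars the mean ± SD. The ranges of Jag1, Dll4, Hes1, Hey1 and Sox9 do not overlap between the groups, while those of the 4 receptors and Jag2 do.

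Among the receptors, Notch2, the main Notch receptor of liver parenchyma and bile duct cells, was the most abundant in every library. Notch2 (chromosome 3, 98013527 to 98150361, plus strand, as on the GRCm38 build throughout) was at 12.6, 51.2 and 39.0 TPM in MKO_PD1, against 65.5, 45.5 and 93.7 TPM in Cre_PD1. The MKO_PD1 replicate 2 value lay inside the Cre_PD1 range and the other 2 below it, and the log2 difference of -1.12 (SE 0.52) did not pass (limma adjusted p = 0.189). Notch1 (chromosome 2, 26457903 to 26516663, minus strand), a receptor of many tissues including endothelium and developing T cells, was at 4.16, 14.3 and 8.06 TPM in MKO_PD1, against 13.4, 7.04 and 16.5 TPM in Cre_PD1. The groups overlapped, and the highest MKO_PD1 value was in replicate 2, the library with the most T cell RNA, whose part in it was not tested (log2 difference -0.50, SE 0.47, limma adjusted p = 0.452). Reads on 1068 and 414 of the 14232 exon bases of Notch1 could also come from 0610009E02Rik and Gm13568 on the opposite strand, since the use of strand in counting is not given in the sources used here. The same holds for 488 exon bases of Notch3 (Gm17276) and 214 of Dll4 (Gm14207), and Notch2 shares 541 exon bases with Gm42820 on its own strand.

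The receptors of the vessel wall did not separate the groups. Notch4 (chromosome 17, 34564268 to 34588503, plus strand), an endothelial receptor, was at 2.71, 10.1 and 4.48 TPM in MKO_PD1, against 4.44, 5.09 and 5.35 TPM in Cre_PD1. The MKO_PD1 values lay on both sides of a narrow Cre_PD1 range, with a log2 difference of 0.04 (SE 0.42, limma adjusted p = 0.954), which was -0.40 without MKO_PD1 replicate 2. Notch3 (chromosome 17, 32120820 to 32166852, minus strand), the mural cell receptor, was the least abundant member, at 0.434, 1.87 and 0.771 TPM in MKO_PD1, against 1.36, 1.36 and 1.58 TPM in Cre_PD1. These levels rest on 46, 151 and 66 reads in MKO_PD1 and on 112, 132 and 112 reads in Cre_PD1, and the log2 difference of -0.33 (SE 0.33) did not pass (limma adjusted p = 0.474). MKO_PD1 replicate 2 was the highest library of all for both genes, and it also had the highest summed TPM of 16 endothelial genes (453) and of 11 mural genes (347). Those sums ranged from 361 to 453 TPM in MKO_PD1 and from 237 to 330 TPM in Cre_PD1 for endothelium, with 16 of 16 genes above 0 in every library, and from 88.7 to 347 and from 140 to 214 TPM for mural cells, with Higd1b at 0 in at least 1 library.

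Of the ligands Jag1 and Dll4 separated the groups and Jag2 did not. Jag1 (chromosome 2, 137081456 to 137116644, minus strand), the ligand whose loss causes bile duct paucity in Alagille syndrome, was at 10.3, 36.03 and 55.1 TPM in MKO_PD1, against 91.1, 89.5 and 154 TPM in Cre_PD1. Every MKO_PD1 value lay under every Cre_PD1 value, with a log2 difference of -1.93 (SE 0.56, limma adjusted p = 0.168), or -1.51 relative to the median of all genes, and 0.697% of tested genes had a lower difference. Dll4 (chromosome 2, 119325784 to 119335962, plus strand), the endothelial ligand that restrains sprouting, was at 6.33, 13.8 and 13.0 TPM in MKO_PD1, against 22.9, 24.8 and 35.9 TPM in Cre_PD1. The groups did not overlap (log2 difference -1.30, SE 0.36, limma adjusted p = 0.168; -0.89 relative to all genes), from 320 to 530 reads in MKO_PD1 and 895 to 1212 reads in Cre_PD1. Jag2 (chromosome 12, 112907819 to 112929776, minus strand), the other Jagged ligand, was at 0.471, 2.28 and 0.937 TPM in MKO_PD1, against 1.88, 1.61 and 3.01 TPM in Cre_PD1. Its ranges overlapped through MKO_PD1 replicate 2 (log2 difference -0.56, SE 0.37, limma adjusted p = 0.300), and its level rests on 43 to 159 reads in MKO_PD1 and 133 to 184 reads in Cre_PD1.

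The mix of receptors and of ligands does not depend on the scaling of a library and can be read within each library. Notch2 made up 63.2, 66.0 and 74.6% of the summed TPM of the 4 receptors in MKO_PD1, against 77.3, 77.1 and 80.0% in Cre_PD1. The MKO_PD1 shares all lay below the Cre_PD1 shares. Notch4 made up 11.8 ± 2.79% of receptor TPM in MKO_PD1 and 6.15 ± 2.18% in Cre_PD1 (SD, n = 3 each), with ranges that just overlapped at 8.56% in MKO_PD1 replicate 3 and 8.63% in Cre_PD1 replicate 2. Among the 5 ligand genes Jag1, Jag2, Dll1, Dll3 and Dll4, Jag1 made up 49.8, 62.1 and 73.8% in MKO_PD1, against 72.5, 73.2 and 77.7% in Cre_PD1. The groups overlapped for this share, since MKO_PD1 replicate 3 lay inside the Cre_PD1 range. Dll4 took 23.9 ± 6.61% of ligand TPM in MKO_PD1 and 18.9 ± 1.26% in Cre_PD1, and Dll1, the Delta-like ligand that marginal zone B cells need, took 11.5 ± 4.86 and 5.21 ± 2.54%, both overlapping. The shares carry no test, and the summed ligand TPM was 51.2 ± 27.7 in MKO_PD1 and 149 ± 43.1 in Cre_PD1.

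**Figure D2:**
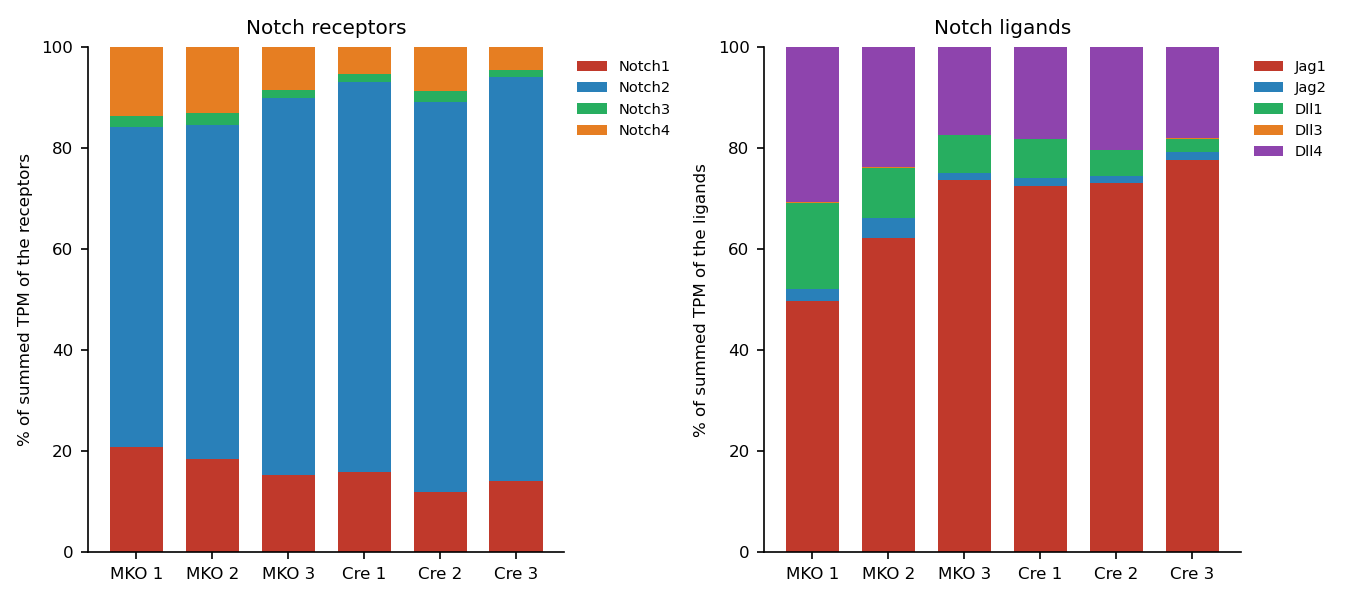
Share of each gene in the summed TPM of the 4 Notch receptors (left) and of 5 Notch ligands (right), in percent, for the 3 MKO_PD1 libraries and the 3 Cre_PD1 libraries. Notch2 fills 63.2 to 74.6% of receptor TPM in MKO_PD1 and 77.1 to 80.0% in Cre_PD1, and Jag1 fills 49.8 to 73.8% of ligand TPM in MKO_PD1 and 72.5 to 77.7% in Cre_PD1.

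All 3 target genes separated the groups. Hes1 (chromosome 16, 30064384 to 30067796, plus strand), a repressor and the best known direct Notch target, was at 21.2, 36.3 and 30.6 TPM in MKO_PD1, against 81.8, 72.1 and 93.3 TPM in Cre_PD1. Every MKO_PD1 value lay far under every Cre_PD1 value, and of the 5 separate members Hes1 had the smallest spread in MKO_PD1 (coefficient of variation 25.9% in MKO_PD1 and 12.9% in Cre_PD1; log2 difference -1.48, SE 0.28, limma adjusted p = 0.168). Hey1 (chromosome 3, 8663359 to 8667256, minus strand), also a repressor and Notch target, was at 10.1, 27.1 and 41.1 TPM in MKO_PD1, against 102, 86.9 and 87.5 TPM in Cre_PD1. Its log2 difference of -1.98 (SE 0.46, limma adjusted p = 0.168) was the lowest of the members, and 0.576% of tested genes had a lower one. Sox9 (chromosome 11, 112782224 to 112787760, plus strand), the duct transcription factor, was at 5.99, 18.4 and 16.4 TPM in MKO_PD1, against 60.5, 23.7 and 34.1 TPM in Cre_PD1. The groups were separate by a narrow margin, and Cre_PD1 replicate 1 was far above the other Cre_PD1 libraries (log2 difference -1.50, SE 0.48, limma adjusted p = 0.168; -1.15 without Cre_PD1 replicate 1). For each of these 3 genes, Jag1 and Dll4 an exact two-sided permutation test on log2(TPM + 1) gave p = 0.1, the smallest that 3 against 3 libraries allow.

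The order of levels within a group was mostly not resolved. In MKO_PD1 the means ran from Notch2 (34.3 TPM) through Jag1, Hes1, Hey1, Sox9, Dll4, Notch1, Notch4 and Jag2 down to Notch3 (1.02 TPM), and only Notch4 and Jag2 were neighbours with separate ranges. In Cre_PD1 they ran from Jag1 (112 TPM) through Hey1, Hes1, Notch2, Sox9, Dll4, Notch1, Notch4 and Jag2 to Notch3 (1.43 TPM). There the ranges of neighbours overlapped from Jag1 down to Dll4, and from Dll4 down to Notch3 each gene lay above the next in all 3 libraries without overlap. Hey1 was above Notch2 on average in Cre_PD1 and below it in MKO_PD1.

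Set against the range of the 3 Cre_PD1 libraries, MKO_PD1 replicate 1 had 10 of 10 members below it, where 73.8% of all tested genes were below, and MKO_PD1 replicate 3 had 8 of 10, where 62.2% of all genes were. MKO_PD1 replicate 2 had 5 of 10 below, namely Jag1, Dll4, Hes1, Hey1 and Sox9, where 31.3% of all genes were, and it had Notch3 and Notch4 above the range. With that library as the only MKO_PD1 sample, a comparison chosen after the data were seen that assumes it varies like the other libraries, the median of all genes was -0.0032. The log2 differences of Jag1, Dll4, Hes1, Hey1 and Sox9 were then -1.56, -0.94, -1.15, -1.72 and -0.96, and those of Notch1, Notch3, Notch4 and Jag2 were above 0. Without that library instead, limma passed 6 members, Notch2 and the same 5, all lower (adjusted p = 0.0299 for Hes1 and 0.0493 for Notch2), where 36.2% of all genes passed as lower.

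**Figure D3:**
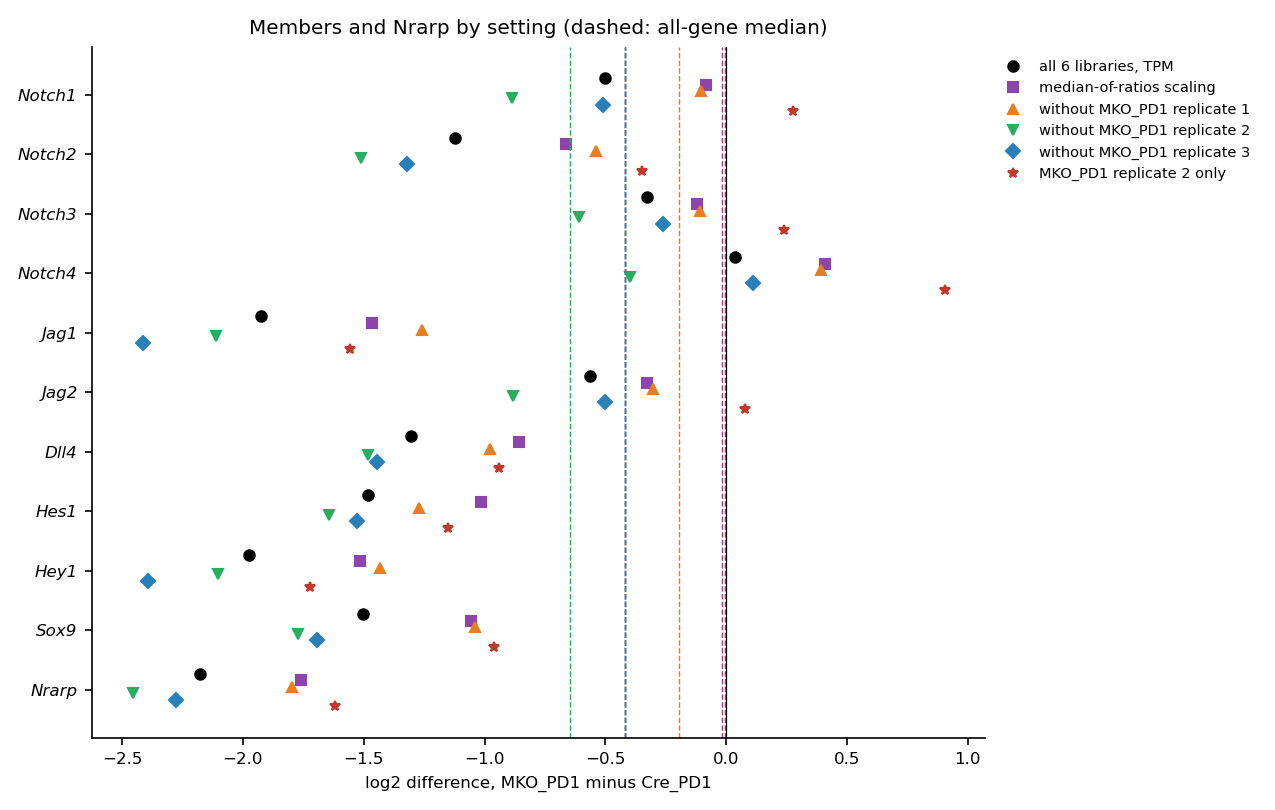
Log2 difference, MKO_PD1 minus Cre_PD1 (horizontal axis), of the 10 members and the target gene Nrarp under 6 settings; dashed lines give the median of all tested genes in the same setting. Jag1, Dll4, Hes1, Hey1, Sox9 and Nrarp lie left of the dashed line of their own setting in all 6, while Notch4 lies right of its line in all 6.

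Hes1 and Sox9, grouped here as genes of tumour and duct epithelium, were then set against Notch3, Notch4, Dll4 and Hey1, grouped here as vessel members. The mean log2(TPM + 1) of Hes1 and Sox9 was 4.31 ± 0.59 in MKO_PD1 and 5.80 ± 0.38 in Cre_PD1 (SD, n = 3 each), and that of the vessel members was 2.91 ± 0.64 in MKO_PD1 and 3.80 ± 0.11 in Cre_PD1. The within-library gap between them was 1.45, 1.32 and 1.43 in MKO_PD1, against 2.42, 1.66 and 1.92 in Cre_PD1. Every MKO_PD1 gap was smaller, by -0.60 on average, and no test is given for a score over chosen members. The separation depended on the 1 added to TPM before the log and on the choice of vessel members. The added 1 raised Notch3 most, at 0.434 to 1.87 TPM. It narrowed the gap most in MKO_PD1 replicate 1, where Notch3 was lowest. Without Notch3 the gap was 0.89, 0.69 and 0.67 in MKO_PD1, against 1.59, 0.82 and 1.07 in Cre_PD1, and the groups overlapped (difference -0.41). With Notch1, Jag1 and Jag2 added to all of the vessel members, it was 1.47, 1.24 and 1.35 in MKO_PD1, against 2.32, 1.71 and 1.69 in Cre_PD1, without overlap. The vessel members did not move as a block, since Notch4 and Notch3 differed by 0.04 and -0.33 while Dll4 and Hey1 differed by -1.30 and -1.98. By the root mean square difference of centred log2 profiles over the 6 libraries, Hey1 was nearest to Jag1 (0.32 log2 units), at 0.46 from Sox9, 0.50 from Hes1 and 0.51 from Dll4, and farther from Notch3 (0.97) and Notch4 (1.13). By the same measure Hes1 was nearer to Dll4 (0.20) than to Sox9 (0.44), and which cells carry Hes1 was not measured.

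Dll4, an endothelial ligand, lay lower in MKO_PD1 relative to endothelial genes too. The endothelial list had 15 of 16 genes above 0 in log2 difference, 6 of them separate and higher where 10.1% of all genes were, and a median of 0.49. The 8 genes of liver sinusoid endothelium were all above 0, with a median of 0.89 and summed TPM of 246 to 286 in MKO_PD1 and 134 to 172 in Cre_PD1. The part of sinusoid content in the endothelial mean was not tested. Plvap and Eng, the most abundant of the 16 endothelial genes, were at 94.5 ± 9.03 and 59.0 ± 7.82 TPM in MKO_PD1 and at 79.8 ± 18.6 and 39.0 ± 10.7 TPM in Cre_PD1. Dll4 minus the mean of the 16 endothelial genes on log2(TPM + 1) was -1.04, -0.37 and -0.21 in MKO_PD1, against 1.18, 0.87 and 1.65 in Cre_PD1, a difference of -1.77. Hey1 minus the same mean was -0.44, 0.55 and 1.38 in MKO_PD1, against 3.29, 2.63 and 2.91 in Cre_PD1, a difference of -2.45. Neither overlapped between the groups. That was fixed in advance, because the mean of the 16 genes was higher in MKO_PD1 without overlap and both genes were lower without overlap. The list mean was 3.91, 4.26 and 4.02 in MKO_PD1, against 3.39, 3.82 and 3.56 in Cre_PD1. Which cells carry Hey1 in these tumours was not measured, and its mean of 92.0 TPM in Cre_PD1 was above that of each listed endothelial gene. Jag2 minus endothelium (difference -1.03) and Notch3 minus the mean of the 11 mural genes (difference -0.38) did not overlap either. Both genes are low, at 0.471 to 3.01 TPM (Jag2) and 0.434 to 1.87 TPM (Notch3), and their own levels overlapped between the groups. Notch4 and Notch1 minus endothelium overlapped (differences -0.44 and -0.97; exact permutation p = 0.4 and 0.2). Exact two-sided permutation tests gave p = 0.1 for each of the 4 separate differences, the smallest possible here, and 0.2 after Benjamini-Hochberg adjustment over the 8 differences compared. For Dll4 and Hey1 this p followed from their own levels and the list mean.

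Hes1 and Sox9 relative to duct epithelium overlapped between the groups. The 12 duct and tumour epithelial genes summed to 2534, 10165 and 6837 TPM in MKO_PD1, against 25202.5, 18691.5 and 18508 TPM in Cre_PD1, with 12 of 12 above 0 in every library. The 11 of them that were tested all had differences below 0, where 72.9% of all genes did, and 5 of 11 did not overlap, where 28.9% of all genes were separate and lower. Their median log2 difference was -0.99. Spp1 alone was at 1072, 5332 and 3179 TPM in MKO_PD1, against 11070.5, 9801 and 10716.5 TPM in Cre_PD1, a large part of the sums. Which cells carry Spp1 was not measured. Hes1 minus the mean of the 12 genes was 0.20, -0.87 and -0.17 in MKO_PD1, against 0.30, -0.03 and 0.17 in Cre_PD1. Sox9 minus the same mean was -1.46, -1.81 and -1.03 in MKO_PD1, against -0.13, -1.59 and -1.26 in Cre_PD1. The groups overlapped for both (differences -0.43 and -0.45; exact permutation p = 0.3 and 0.6). The list mean itself, in log2(TPM + 1), was 4.27, 6.09 and 5.15 in MKO_PD1, against 6.07, 6.22 and 6.39 in Cre_PD1. MKO_PD1 replicate 2 was inside the Cre_PD1 range for this mean, while its summed TPM of the list, Hes1 and Sox9 were below every Cre_PD1 value. Sox9 was highest in Cre_PD1 replicate 1, which had the lowest list mean of the Cre_PD1 libraries but the highest sum. The list was split there. Krt19, Krt8, Krt18, Spp1 and Cd24a were at their highest, and Krt7, Epcam, Cldn4, Cldn7 and Prom1 were at their lowest of the Cre_PD1 libraries. Hey1 minus the same list, added after its values were seen and not tested, was -0.80, -1.27 and 0.24 in MKO_PD1, against 0.61, 0.24 and 0.08 in Cre_PD1, with overlapping groups. The endothelial list had a median log2 difference of 0.49 and the duct list -0.99. Separation against the first and overlap against the second therefore cannot be set side by side.

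**Figure D4:**
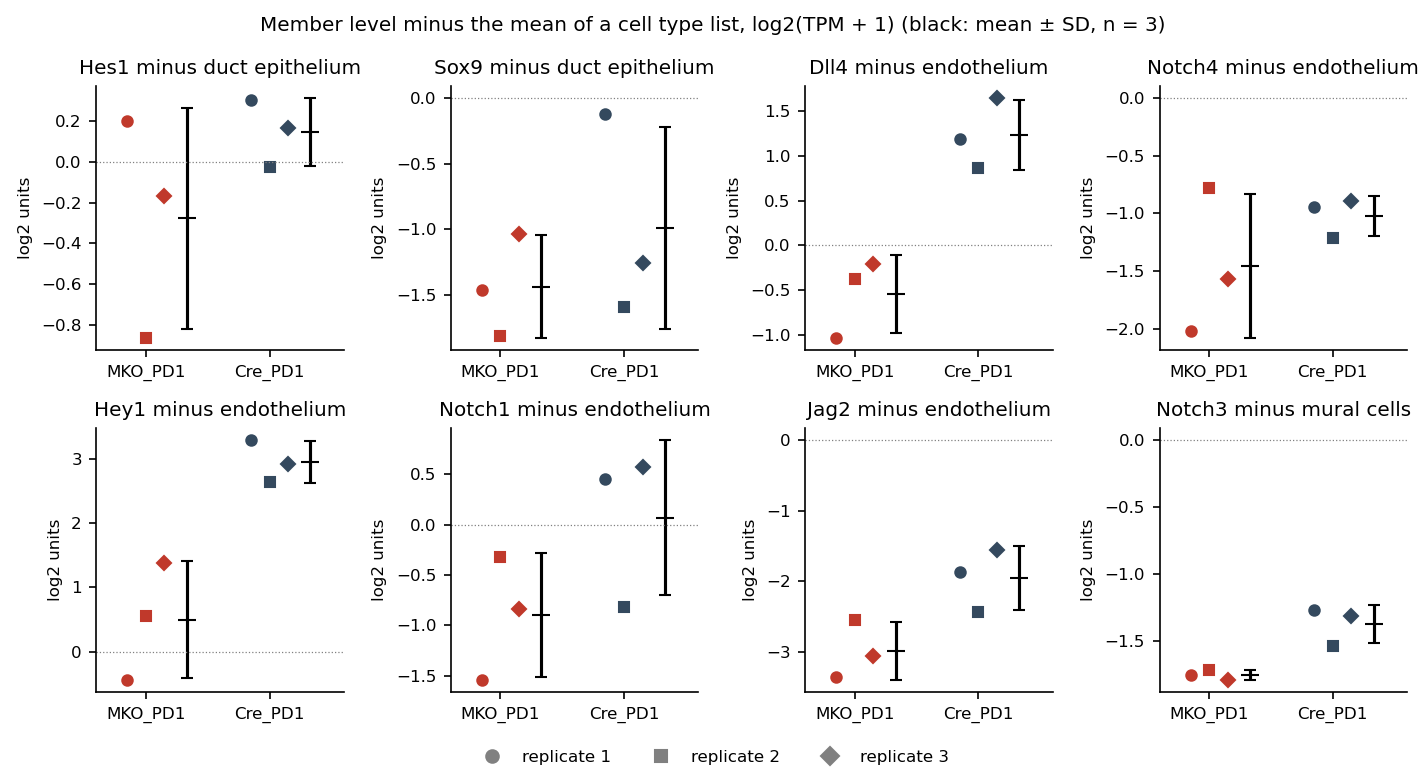
Level of a Notch gene minus the mean of a cell type list in the same library, in log2 units of TPM + 1, for the 3 MKO_PD1 libraries and the 3 Cre_PD1 libraries; black bars give the mean ± SD and each panel has its own axis. Dll4 and Hey1 minus endothelium are separate between the groups, as both genes and the list mean already were in opposite directions. Hes1 and Sox9 minus duct epithelium overlap. The endothelial list had a median log2 difference of 0.49 and the duct list -0.99, so panels against different lists cannot be set side by side.

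The wider pathway had a median nearer to that of all genes than the members had. Of 63 further pathway genes in 8 role lists, 56 were tested and 0 passed the adjusted threshold in limma or in limma voom. The groups did not overlap for 15 lower genes (26.8%, beside 28.9% of all genes) and for 1 higher gene, and 12 were lower at an unadjusted p under 0.05 (21.4%, beside 19.5% of all genes). The median log2 difference was -0.59, beside -0.42 for all genes. The 7 genes that were not tested, Dll3, Dlk1, Dtx1, Hes2, Hes5, Hey2 and Il2ra, did not pass the filter.

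The target genes outside the members had the lowest median of the 8 lists. Of 13 listed, 9 were tested and all 9 were below 0, where 72.9% of all genes were. The groups were separate and lower for 4 of 9, where 28.9% of all genes were, and the median was -0.85. Nrarp, a direct target that feeds back to limit Notch signalling, was at 2.89, 8.68 and 6.56 TPM in MKO_PD1, against 23.0, 22.2 and 46.3 TPM in Cre_PD1. The groups were far apart, and its log2 difference of -2.18 (SE 0.44, limma adjusted p = 0.168), or -1.76 relative to all genes, lay below that of every member. Gata3, a transcription factor gene of T helper cells and epithelia, was at 5.93 ± 3.83 TPM in MKO_PD1 and 17.4 ± 3.60 TPM in Cre_PD1. Cd44, an adhesion receptor gene, was at 101 ± 62.3 TPM in MKO_PD1 and 219 ± 29.5 TPM in Cre_PD1. Cyclin D1 and Myc, genes of proliferation, had log2 differences of -1.33 (Ccnd1) and -0.85 (Myc), beside a median of -1.25 over 12 cell cycle genes. Hes6, a HES family member known to antagonise Hes1, was at 62.5 ± 16.8 TPM in MKO_PD1 and 67.1 ± 5.13 TPM in Cre_PD1.

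Genes of the nuclear complex came next, with 7 of 8 below the median of all genes, 3 of 8 separate and lower, where 28.9% of all genes were, and a median of -0.83. They include Maml1 and Maml3, coactivators that bind cleaved Notch on RBPJ, at 22.1 ± 9.57 and 2.94 ± 1.89 TPM in MKO_PD1 and at 42.5 ± 10.6 and 7.40 ± 1.77 TPM in Cre_PD1. Snw1, a splicing and transcription cofactor, was at 14.3 ± 6.32 TPM in MKO_PD1 and 25.3 ± 1.88 TPM in Cre_PD1. Rbpj itself was at 6.23, 34.4 and 16.6 TPM in MKO_PD1, against 33.6, 22.8 and 27.9 TPM in Cre_PD1, with overlapping groups. Among 10 corepressor genes 9 were below 0, where 72.9% of all genes were, and 2 were separate and lower, under the 28.9% of all genes (median -0.58), with Cir1, Tle3 and Kdm5a at log2 differences of -0.59, -0.88 and -0.73.

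Receptor cleavage genes were separate about as often as all genes. Of 10 genes 3 were separate and lower, where 28.9% of all genes were, and 1 was separate and higher, where 10.1% were (median -0.45). Adam10, the surface protease that makes the first ligand-induced cut, was at 38.2, 164 and 87.8 TPM in MKO_PD1, against 195, 148 and 186 TPM in Cre_PD1, and MKO_PD1 replicate 2 lay inside the Cre_PD1 range. Psen2, a catalytic subunit of gamma-secretase, was the only pathway gene separate and higher, at 92.4, 41.4 and 67.6 TPM in MKO_PD1, against 18.3, 28.8 and 36.8 TPM in Cre_PD1 (log2 difference 1.22, SE 0.38, limma adjusted p = 0.168). Its order over all 6 libraries was that of their hepatocyte share, whose part in it was not tested. Aph1a, another subunit, had a log2 difference of -0.59.

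The enzymes that put sugars on the receptors stayed with the bulk of genes, with 1 of 5 below the all-gene median (list median -0.31) and none separate. Pofut1, which adds the fucose that Notch needs, had a log2 difference of -0.78, and Poglut1 and Rfng had -0.32 and -0.31, which turned to 0.13 and 0.14 under median-of-ratios scaling. Lfng, a fringe enzyme that tunes the response to Jagged ligands, was at 25.1, 79.6 and 31.4 TPM in MKO_PD1, against 26.0, 42.1 and 51.7 TPM in Cre_PD1, highest in the library with the most T cell RNA. The 4 ligand endocytosis genes had a median of -0.33, with Mib1 at -0.44, Mib2 at -0.24 and Neurl1b at -0.41, and none separate. Of 8 tested turnover genes 3 were separate and lower, where 28.9% of all genes were. Among them was Numbl, an inhibitor of Notch, at 9.41 ± 6.03 TPM in MKO_PD1 and 21.8 ± 3.46 TPM in Cre_PD1. Dtx3 and Dtx2, of the Deltex family, had log2 differences of -1.10 and -0.69. The remaining ligands Dll1 and Dlk2, a non-canonical ligand, had log2 differences of -0.43 and -0.99 with overlapping groups.

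Arterial genes, which Notch patterns in development, were split. Efnb2 was at 11.2, 83.1 and 45.6 TPM in MKO_PD1, against 98.9, 101 and 127 TPM in Cre_PD1, and Unc5b at 5.08, 33.6 and 18.9 TPM in MKO_PD1, against 49.2, 37.2 and 47.8 TPM in Cre_PD1. Both were lower without overlap, which is 2 of the 5 tested arterial genes, where 28.9% of all genes were separate and lower. Which cells carry them was not measured, and the Efnb2 mean of 109 TPM in Cre_PD1 was above that of each listed endothelial gene. The gap junction genes Gja4 and Gja5 overlapped, with log2 differences of 0.30 and 0.29, and so did Sema3g (0.08).

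**Figure D5:**
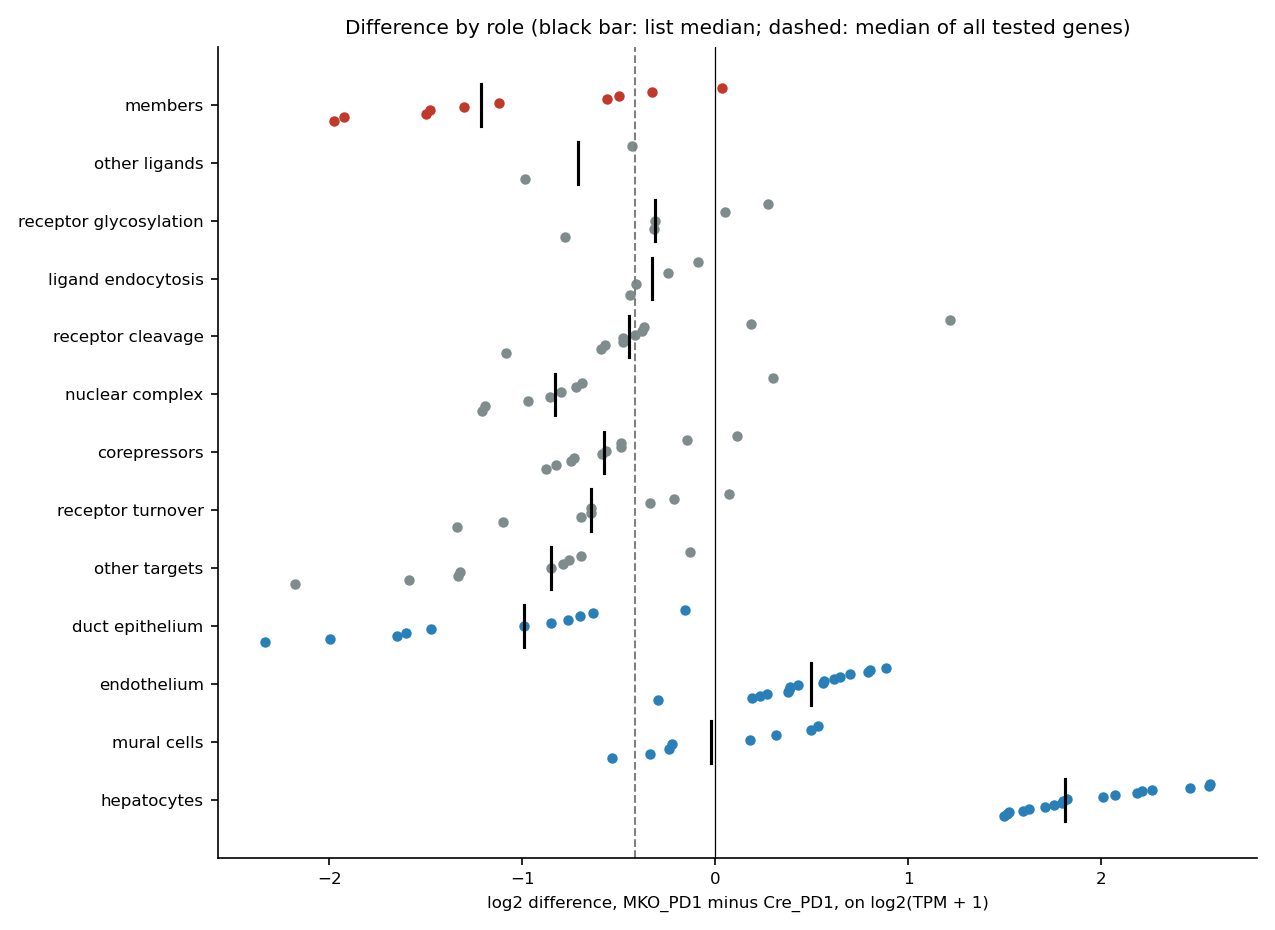
Log2 difference, MKO_PD1 minus Cre_PD1, on log2(TPM + 1) (horizontal axis) of every tested gene in the member list, 8 wider pathway lists and 4 cell type lists; black bars give list medians and the dashed line the median of all tested genes at -0.42. The member median lies at -1.21 and that of the other targets at -0.85, with endothelium at 0.49 and hepatocytes at 1.81.

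The genes most like a member were found by the smallest root mean square difference between centred log2(TPM + 1) profiles over the 6 libraries, among 10799 genes of at least 5 TPM on average. For Hes1 they were Dok4, Pik3r2, Cldn2, Lrfn3 and Plekhh3, at 0.15 to 0.19 log2 units. Cldn2, a claudin of tight junctions, was at 156 TPM on average in MKO_PD1 and 452 TPM in Cre_PD1. For Sox9 they were Gga2, Zfp36l2, Asap2, Spry4 and Tjp1, at 0.12 to 0.17 log2 units. For Dll4 they were Sema6c, Rabl2, Rapgef3, Fam189a2 and Col27a1, at 0.089 to 0.15 log2 units, and for Notch3 they were Bid, Esco1, Rfng, Cggbp1 and Nkapd1, at 0.022 to 0.042 log2 units. None of the 10 members was among the 5 nearest genes of these 4, although Hes1 and Dll4 were 0.20 log2 units apart. Jag2 and Notch3 were 0.19 apart, but both lay under the limit of 5 TPM on average and could not be named. The measure rests on 6 libraries that share the same differences in tissue content.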

How the data were processed

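Bulk RNA-seq of 6 liver tumours was compared, 3 MKO_PD1 against 3 Cre_PD1, grouped by the labels. Nothing in the labels says that the tumours were separate experiments, so p-values measure the spread between these samples. The submitters' processing notes name STAR 2.7.10a, Subread, featureCounts 2.0.3 and mm10. The authors deposited a length-normalised read signal that their table calls TPM; its columns summed to 70363 to 105281, so each column was rescaled to 1000000, which the text calls TPM. Such scaling makes a gene's value depend on all others in its library. Multiplying the deposited signal by GENCODE M21 exon lengths gave whole reads, within 0.001 of a read, for 29354 of 29802 genes (98.5%), and these recovered reads were used for depth and for limma voom. 1 read per kilobase was worth 0.0763 to 0.114 TPM.

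The main test was limma 3.58.1 in R 4.3.3 (trended eBayes) on log2(TPM + 1) for the 16506 genes that reached 1 TPM in 3 or more libraries, with Benjamini-Hochberg adjustment over all of them and a threshold of 0.05. A difference on this scale understates the change of low genes. Single values were also compared by exact two-sided permutation tests, whose smallest p is 0.1. The code was tested on simulated data. The members and gene lists were chosen with earlier results of these data known. All members are named, with up to 3 genes of smallest p per pathway list. The 2 most abundant genes of a cell type list and the 5 nearest genes of 4 members are named as well. Hes5, Hes6, Rbpj, Lfng, Ccnd1, Myc, Gja4, Gja5 and Sema3g were added after their values were seen. Alternatives covered pseudocount, filter, scaling, model and left-out libraries.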

Additional observations from a re-analysis of the deposited data

How the results depend on the processing

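No member or pathway gene passed limma's adjusted threshold in the main analysis or under other pseudocounts, filters or scalings, limma voom or the replicate block, which also called 0 of all genes; replicate numbers did not pair the libraries (correlations of deviations -0.42, -0.26 and 0.05). Over all genes the main analysis called 1 higher and 1 lower gene. Without a filter, with a filter of 5 TPM, under voom, under the replicate block and without MKO_PD1 replicates 1 and 3 (chosen after seeing the data) it was 0 and 0; under median-of-ratios scaling it was 0 higher, and for the values as deposited 0 higher and 2 lower. Sample quality weights, estimated gene by gene because the default did not converge, gave 2330 higher and 8221 lower genes, with 8 members lower and 2 pathway genes higher and 37 lower. Leaving out 1 library at a time gave 0 to 1290 higher and 0 to 5979 lower genes, 0 to 6 members lower, and 0 to 1 pathway genes higher and 0 to 28 lower, the upper ends without MKO_PD1 replicate 2. Differences kept their sign in all settings run for Hes1 (-1.65 to -1.01), Hey1 (-2.39 to -1.16), Jag1 (-2.41 to -1.00007), Dll4 (-1.48 to -0.74), Sox9 (-1.81 to -0.93) and Nrarp (-2.46 to -1.16). Without MKO_PD1 replicates 1 and 3, signs turned for Notch1 (0.28), Notch3 (0.24), Jag2 (0.077), Dlk2 (0.014), Poglut1 (0.22), Rfng (0.21), Neurl1b (0.10), Mib2 (0.066), Trem2 (0.36) and Notch4 minus endothelium (0.24). Notch4 (0.04 in the main analysis, 0.39 without MKO_PD1 replicate 1) turned to -0.13 under weights, -0.40 without MKO_PD1 replicate 2 and -0.029 without Cre_PD1 replicate 1. Median-of-ratios scaling turned Poglut1 (0.13), Rfng (0.14), Mib1 (0.022) and Mib2 (0.22). The cause was not tested. Depth limits Notch3 and Jag2 most, at 43 to 184 reads a library.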
